A study of Homo sapiens with 45 samples.

Results

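The HOX genes of the 4 human clusters were examined in bone tumour cell lines. Every gene whose symbol was HOXA, HOXB, HOXC or HOXD followed only by digits, and which had at least 1 curated protein-coding RefSeq transcript, was taken, which gave 39 of the 41582 genes in the data: 11 HOXA, 10 HOXB, 9 HOXC and 9 HOXD genes. Poly(A) RNA of 45 libraries had been sequenced. Ewing sarcoma was represented by TC71, SKES1, RDES, MHHES1, EW24, EW3 and A673. Osteosarcoma was represented by G292 (labelled as the clone A141B1 of G-292), HOS-MNNG, KHOS (labelled KHOS/NP), MG63, SAOS2 and U2OS, with 3 libraries for every line. HOS-MNNG and KHOS are both derivatives of the HOS line, so they share a donor. A further 6 libraries were from A673 with sh908, a hairpin RNA against the potassium channel gene KCNN1, and were labelled as 3 without and 3 with doxycycline, the drug that switches the hairpin on. The parental A673 libraries carried no hairpin label, and a control hairpin was not analysed here. Each line is a single long-cultured line without stroma or host tissue, and nothing in the labels says that the 3 libraries of a line came from separate cultures, so within-line p-values measure the spread between those libraries, which may be technical.

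HOX genes encode homeodomain transcription factors that give cells their position along the body axis and along the limb. Within a cluster the genes lie in the order of the axis they serve: low position numbers act towards the head, and high numbers towards the tail and the far end of the limb, where HOXA13 and HOXD13 pattern the hand and foot. The proteins bind DNA with TALE cofactors of the PBX and MEIS families, and their on and off states are kept by MLL (trithorax) and Polycomb complexes. Ewing sarcoma carries a fusion of EWSR1 with an ETS factor, most often FLI1, and is known for high levels of the posterior HOXD genes. Osteosarcoma is a bone-forming tumour without that fusion.

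Libraries held 15784360 to 50737560 estimated counts assigned to genes. The sh908 libraries held 16461478 to 24537495. The 3 sh908 replicates were not alike: 19537 to 20836 genes had at least 1 count in replicates 1 and 2 of either treatment, 24251 and 24172 in replicate 3, and 25184 to 25874 in parental A673. Labels of tumour type were checked against markers. The summed level of 8 Ewing sarcoma markers was 1161 to 2920 TPM in the Ewing lines and 145 to 976 in the osteosarcoma lines, with PRKCB and ITM2A under 1 TPM in every osteosarcoma line. In the test between the tumour types described below, CD99, FLI1 and ERG of this list did not pass. The summed level of 8 osteoblast markers was 10.2 to 321 TPM in the Ewing lines and 115 to 4345 in the osteosarcoma lines, and the bone matrix gene IBSP was under 1 TPM in every line. In A673 with sh908 the Ewing markers summed to 2462 and 2504 TPM and the osteoblast markers to 199 and 248 TPM. Of 8 markers of blood, endothelial and epithelial cells, 4 were under 1 TPM in every Ewing line and 2 (PTPRC and CD3E) in every osteosarcoma line, and summed levels were 1.34 to 599 and 8.06 to 946 TPM. In sh908 cells 7 of these 8 were under 1 TPM. TPM, the share of a library's transcripts that a gene holds, is scaled for transcript length, so levels can be compared between genes. In RNA from whole cultures, fewer cells that express a gene and less RNA per cell cannot be told apart.

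In GRCh38.p14, the build named in the submitters' processing notes, the HOXA genes span chr7:27092993-27200091, the HOXB genes chr17:48528526-48728750, the HOXC genes chr12:53938831-54056030 and the HOXD genes chr2:176087487-176190907. To show the start regions of genes that differed in opposite directions between the tumour types, the 150 bases before the RefSeq start of 2 HOXD and 2 HOXA genes are printed 5′ to 3′ on the gene's own strand, from RefSeq's sequences of that build. HOXD13 (chr2:176092571-176092720, plus strand) and HOXD8 (chr2:176129555-176129704, plus strand) were higher in Ewing lines. HOXA9 (chr7:27165538-27165687, minus strand) and HOXA6 (chr7:27147775-27147924, minus strand) were lower. The HOXD13 stretch lies inside the annotated span of HOXD13 itself and the HOXA6 stretch inside that of HOXA3, while the other 2 lie in no member's span. Capitals mark TATAAA on either strand, where overlapping matches run together.
HOXD13: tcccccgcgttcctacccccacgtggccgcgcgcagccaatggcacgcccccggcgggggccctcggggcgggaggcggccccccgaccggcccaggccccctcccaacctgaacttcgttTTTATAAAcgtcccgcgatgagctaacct
HOXD8: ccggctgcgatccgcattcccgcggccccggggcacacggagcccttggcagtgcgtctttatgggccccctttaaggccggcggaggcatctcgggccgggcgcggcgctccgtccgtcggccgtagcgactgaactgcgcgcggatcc
HOXA9: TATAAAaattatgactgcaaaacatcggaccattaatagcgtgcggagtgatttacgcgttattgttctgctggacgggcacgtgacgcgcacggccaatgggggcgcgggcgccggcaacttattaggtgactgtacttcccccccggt
HOXA6: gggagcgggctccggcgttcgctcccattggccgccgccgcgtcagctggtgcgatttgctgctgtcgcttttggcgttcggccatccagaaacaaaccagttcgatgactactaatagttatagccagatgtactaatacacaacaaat
Windows for 19 of the 39 genes, 26 in all, were in the RefSeq table. TATAAA was found on either strand in 5 of the 26 stretches of 250 bases before a start (in HOXD13, HOXA3, HOXA9 and both HOXA10 windows) and in 10.8% of the 34943 such stretches in the table. GGAAGGAA, a pair of the GGAA repeats that the EWSR1-FLI1 protein is known to bind, was found in 1 member stretch, that of HOXA2, and in 3.06% of all. CCGGAAGT, a typical ETS factor site, was found in none of the 26 and in 3.39% of all. The member stretches held a median of 19.5 CG dinucleotides, against 11 over all stretches.

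Ewing and osteosarcoma lines differed in how much HOXA and HOXD RNA they held, while both held HOXB and HOXC RNA. A gene was counted as detected in a line when its mean over the 3 libraries was at least 1 TPM. Between 23 (A673) and 28 (MHHES1) of the 39 genes were detected in an Ewing line, and between 30 (U2OS) and 34 (MG63) in an osteosarcoma line. The order turned with the threshold: the median number per line was 26 in Ewing and 31.5 in osteosarcoma lines at 1 TPM, but 22 and 20.5 at 5 TPM. All 9 HOXC genes were detected in each Ewing line, with 7 or 8 of 9 HOXD genes but only 0 to 3 of 11 HOXA genes. In the osteosarcoma lines 9 or 10 HOXA genes were detected, with 4 to 7 HOXD genes. Detected in all 13 lines were 11 genes, namely HOXB3, HOXB6, HOXB7, HOXC4, HOXC5, HOXC6, HOXC8, HOXC9, HOXC10, HOXD8 and HOXD9. HOXB1 and HOXD1, at the head end of their clusters, reached 1 TPM in the mean of no line.

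The summed HOXD level was 273 ± 116 TPM in the Ewing lines (SD, n = 7 lines). The osteosarcoma value was 31.2 ± 21.3 TPM (SD, n = 6 lines). Its lowest Ewing value, 151 TPM in SKES1, was above its highest osteosarcoma value, 70.2 TPM in SAOS2. The summed HOXA level ran the other way, at 11.1 ± 6.75 against 106 ± 33.7 TPM. The highest HOXA sum of an Ewing line was 18.7 TPM in SKES1 and the lowest of an osteosarcoma line was 65.9 TPM in U2OS. A673 had the lowest, 0.308 TPM for all 11 genes. HOXC sums were 178 ± 98.02 and 76.4 ± 32.5 TPM, and HOXB sums were 119 ± 52.3 and 159 ± 56.9 TPM, with lines of both tumour types overlapping. HOXB and HOXC held 21.1 and 29.3% of the summed HOX level in Ewing lines and 42.1 and 20.5% in osteosarcoma lines. HOXC was the cluster with the most RNA in EW3 (50.2%) and SKES1 (35.6%). Posterior genes, those with position numbers 9 to 13, made up 67.5 ± 10.1% of the summed HOX level in Ewing lines and 39.95 ± 7.499% in osteosarcoma lines. These sums are descriptions and were not tested.

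**Figure D1:**
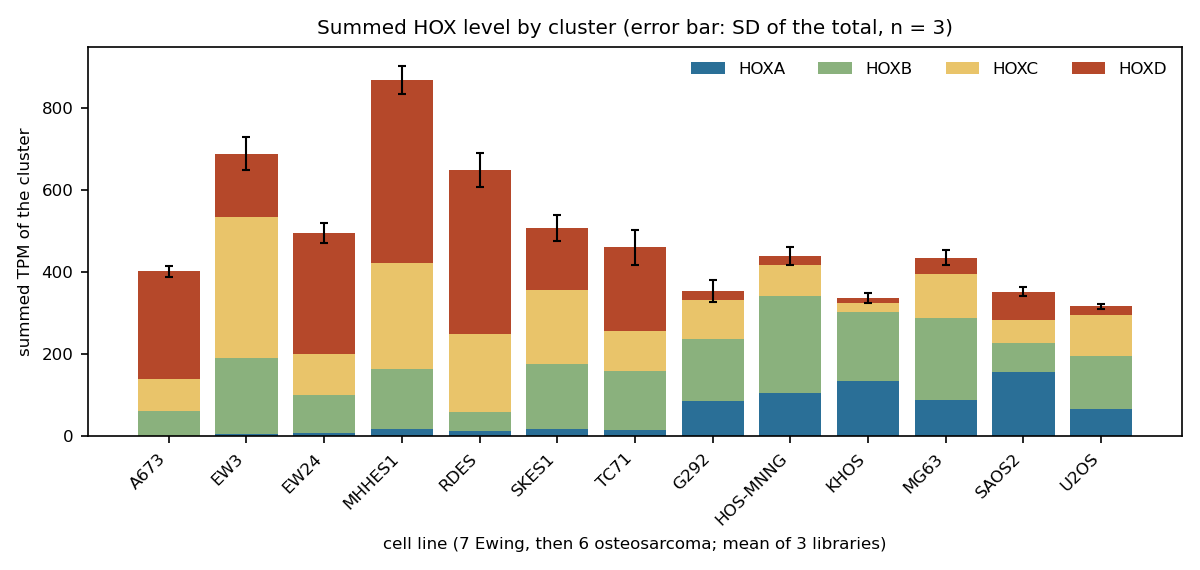
Summed TPM of the HOXA, HOXB, HOXC and HOXD genes (stacked bars, mean of 3 libraries) in 7 Ewing sarcoma and 6 osteosarcoma lines, with the SD of the total. HOXD makes up 22.2% of the bar of EW3, the lowest Ewing share, 29.7% of that of SKES1 and 19.9% of that of SAOS2. The HOXA segment is thin in all Ewing lines.

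**Figure D2:**
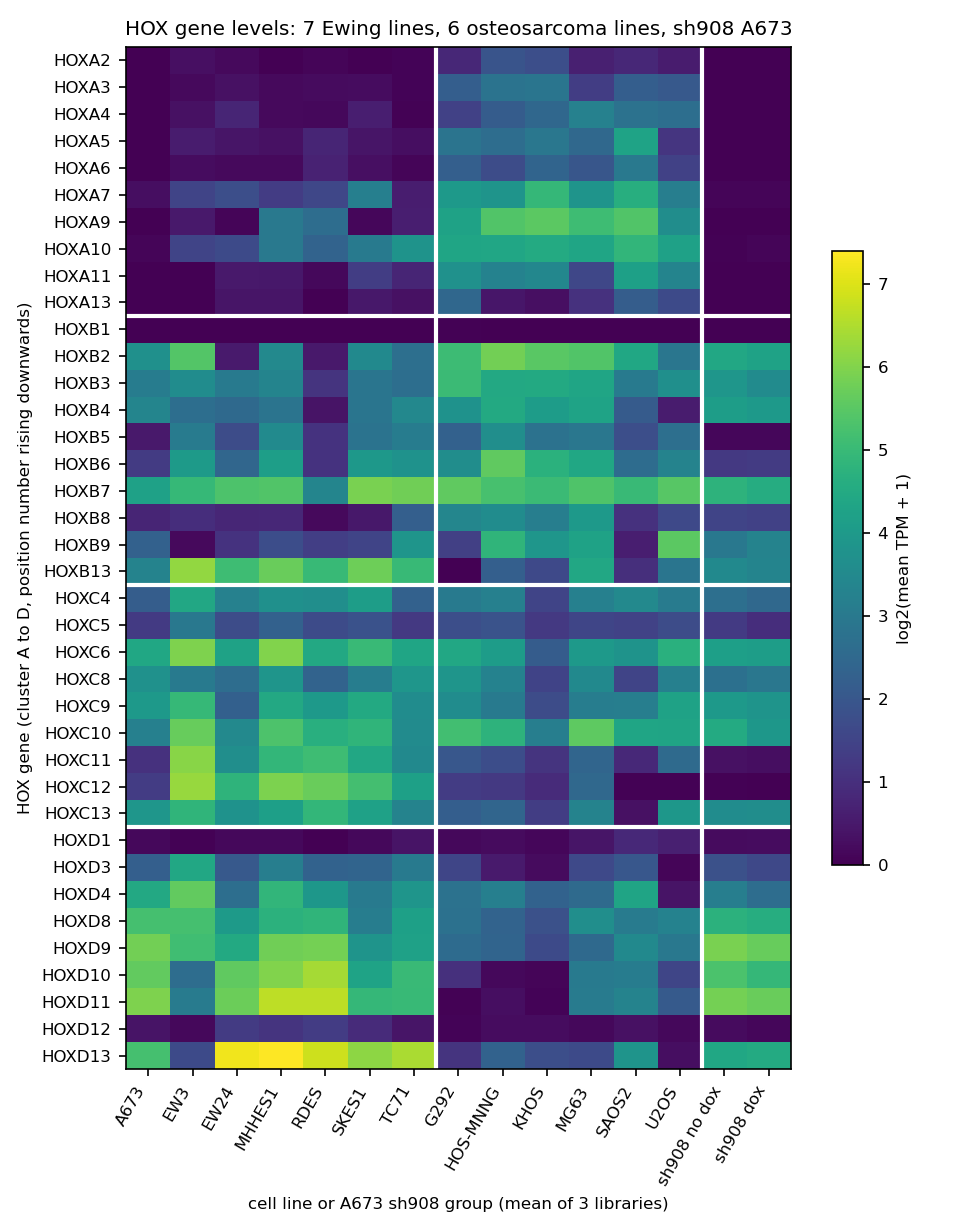
Mean level of 38 HOX genes (rows, by cluster and position number) as log2(mean TPM + 1) in the 13 lines and the 2 sh908 groups (columns, 3 libraries each). The HOXA block is low in the 7 Ewing columns and higher in the 6 osteosarcoma columns, and HOXD10, HOXD11 and HOXD13 show the reverse apart from EW3.

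The first test asked which HOX genes differed between Ewing sarcoma and osteosarcoma lines. The 3 libraries of a line were summed and the 13 lines were the samples (edgeR quasi-likelihood test, Benjamini-Hochberg false discovery rate, FDR, over all genes tested, with a call at an FDR under 0.05). Of the 38 members tested, 7 were higher in Ewing lines (HOXC11, HOXC12, HOXD8, HOXD9, HOXD10, HOXD12 and HOXD13) and 11 were lower (among them HOXA2 to HOXA7, HOXA9, HOXA11, HOXB3 and HOXB8). HOXB1 did not pass the filter on low counts. Among all 22000 genes tested, 14.4% were called, 5.96% as higher and 8.4% as lower, so the share of members called, 18 of 38, was above that background. The median log2 fold change, Ewing minus osteosarcoma, was -0.34 over the 38 members and -0.06 over all genes tested. With the 2 HOS derivatives HOS-MNNG and KHOS summed as 1 line, 15 members were called, 7 higher and 8 lower. Of all 22498 genes tested in that fit 2782 were called, 1099 higher and 1683 lower. The calls of HOXA9 (log2 fold change -4.24, FDR = 0.0535), HOXB3 (-1.50, FDR = 0.0752) and HOXB8 (-2.85, FDR = 0.0567) were lost with fold changes close to those of the 13 lines. DESeq2 called 24 members, where 24.6% of all genes were called. At the level of libraries, 28 members and 21.7% of all genes were called with line as a random effect, and 38 members and 70.4% of all genes with fixed line means and the replicate block, which uses only the spread between libraries. Line means did not overlap between the tumour types for 11 members, 2 higher (HOXD3 and HOXD9) and 9 lower in Ewing lines, against 5.58% of all genes tested (3.19% higher and 2.39% lower).

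**Figure D3:**
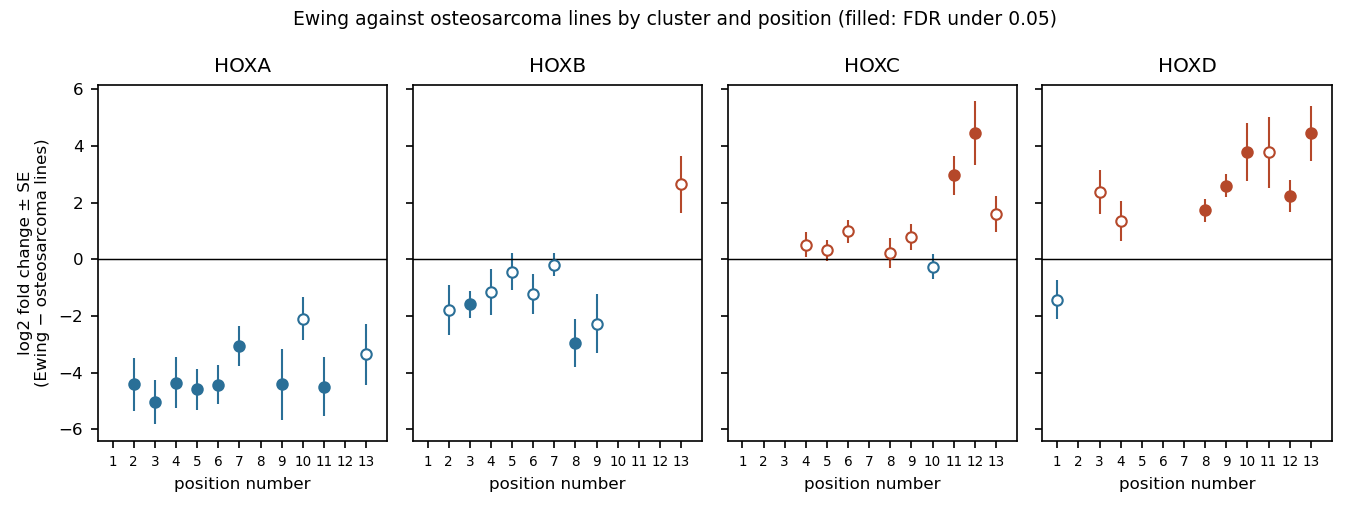
Log2 fold change of 37 tested HOX genes, Ewing minus osteosarcoma lines, with its SE, against position number in each cluster (filled points have an FDR under 0.05). All 10 HOXA points shown lie below 0, the HOXB points lie below 0 except HOXB13, and the highest HOXC and HOXD points are HOXC12 at 4.46 and HOXD13 at 4.44.

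The 10 HOXA genes described had negative log2 fold changes, from -5.04 (HOXA3) to -2.09 (HOXA10), and 8 were called lower in Ewing lines, against 8.4% of all genes. The anterior genes HOXA2 and HOXA3 act in the hindbrain and its neural crest. HOXA2 averaged, in TPM of the Ewing lines, 0 in A673, 0.231 in EW3, 0.145 in EW24, 0.0143 in MHHES1, 0.0638 in RDES, 0 in SKES1 and 0.0468 in TC71. HOXA2 in osteosarcoma lines averaged, in TPM, 0.773 in G292, 2.81 in HOS-MNNG, 2.45 in KHOS, 0.564 in MG63, 0.773 in SAOS2 and 0.465 in U2OS. HOXA2 had a log2 fold change of -4.40 ± 0.93 (FDR = 0.00779). Both genes were under 0.5 TPM in each Ewing line, and HOXA2 was low in the osteosarcoma lines too. HOXA3 averaged, in TPM of the Ewing lines, 0 in A673, 0.135 in EW3, 0.269 in EW24, 0.139 in MHHES1, 0.172 in RDES, 0.1801 in SKES1 and 0.05404 in TC71. HOXA3 in osteosarcoma lines averaged, in TPM, 3.58 in G292, 6.002 in HOS-MNNG, 6.29 in KHOS, 1.54 in MG63, 3.67 in SAOS2 and 3.204 in U2OS. HOXA3 had a log2 fold change of -5.04 ± 0.78 (FDR = 0.001403), without overlap of the line values.

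HOXA4, HOXA5, HOXA6 and HOXA7 are central genes of the cluster that act in the neck and chest region. HOXA4 averaged, in TPM of the Ewing lines, 0 in A673, 0.26002 in EW3, 0.702 in EW24, 0.138 in MHHES1, 0.118 in RDES, 0.531 in SKES1 and 0.0234 in TC71. HOXA4 in osteosarcoma lines averaged, in TPM, 1.72 in G292, 3.46 in HOS-MNNG, 4.56 in KHOS, 8.59 in MG63, 5.97 in SAOS2 and 5.32 in U2OS. The fold change was -4.34 ± 0.90 on the log2 scale (FDR = 0.00688). HOXA5, which patterns lung and shoulder, averaged, in TPM of the Ewing lines, 0.0153 in A673, 0.472 in EW3, 0.331 in EW24, 0.251 in MHHES1, 0.6999 in RDES, 0.326 in SKES1 and 0.212 in TC71. HOXA5 in osteosarcoma lines averaged, in TPM, 6.15 in G292, 5.24 in HOS-MNNG, 6.597 in KHOS, 4.65 in MG63, 18.4 in SAOS2 and 1.19 in U2OS. HOXA5 had a log2 fold change of -4.59 ± 0.73 (FDR = 0.00163), and SAOS2 stood above the other osteosarcoma lines. HOXA6 averaged, in TPM of the Ewing lines, 0 in A673, 0.181 in EW3, 0.1295 in EW24, 0.148 in MHHES1, 0.634 in RDES, 0.229 in SKES1 and 0.0699 in TC71. HOXA6 in osteosarcoma lines averaged, in TPM, 3.75 in G292, 2.302 in HOS-MNNG, 4.24 in KHOS, 2.97 in MG63, 6.87 in SAOS2 and 1.68 in U2OS. With a log2 fold change of -4.42 ± 0.69 (FDR = 0.00142), HOXA6 did not overlap between the tumour types. HOXA7 averaged, in TPM of the Ewing lines, 0.219 in A673, 1.84 in EW3, 2.402 in EW24, 1.47 in MHHES1, 1.99 in RDES, 8.12 in SKES1 and 0.509 in TC71. HOXA7 in osteosarcoma lines averaged, in TPM, 14.99 in G292, 13.2 in HOS-MNNG, 29.6 in KHOS, 13.1 in MG63, 24.02 in SAOS2 and 7.95 in U2OS. SKES1, at 8.12 ± 0.498 TPM (SD, n = 3 libraries), reached the level of U2OS, at 7.95 ± 0.663 TPM, so the line values of HOXA7 overlapped. HOXA7 had a log2 fold change of -3.06 ± 0.71 (FDR = 0.0126).

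Among the posterior HOXA genes, HOXA9, a factor known for its part in leukaemia, was the highest HOX gene of KHOS and SAOS2. HOXA9 averaged, in TPM of the Ewing lines, 0 in A673, 0.414 in EW3, 0.0796 in EW24, 6.93 in MHHES1, 5.203 in RDES, 0.0925 in SKES1 and 0.532 in TC71. HOXA9 in osteosarcoma lines averaged, in TPM, 18.3 in G292, 41.05 in HOS-MNNG, 45.3 in KHOS, 32.9 in MG63, 41.1 in SAOS2 and 11.2 in U2OS. MHHES1 and RDES had several TPM where the other Ewing lines had under 1, yet all 7 stayed below U2OS, the lowest osteosarcoma line. HOXA9 had a log2 fold change of -4.40 ± 1.25 (FDR = 0.0322). Its FDR was 0.0577 without EW3, 0.0523 without SKES1, 0.0602 without TC71, 0.0518 without HOS-MNNG and 0.0554 without KHOS, where the log2 fold change stayed between -4.29 and -4.19. HOXA11 averaged, in TPM of the Ewing lines, 0.00656 in A673, 0.00624 in EW3, 0.419 in EW24, 0.396 in MHHES1, 0.109 in RDES, 1.54 in SKES1 and 0.701 in TC71. HOXA11 in osteosarcoma lines averaged, in TPM, 12.4 in G292, 8.64 in HOS-MNNG, 9.69 in KHOS, 1.97 in MG63, 17.5 in SAOS2 and 9.15 in U2OS. HOXA11, which shapes the forearm and lower leg and the uterus, had a log2 fold change of -4.50 ± 1.05 (FDR = 0.0129). HOXA10, which patterns the uterus and the thigh, was at 5.06 ± 4.39 TPM in Ewing lines (SD, n = 7 lines), from 0.0673 in A673 to 13.03 in TC71. Its level was 21.1 ± 3.82 TPM in osteosarcoma lines (SD, n = 6 lines). The lines of the tumour types did not overlap, but the log2 fold change of -2.09 ± 0.76 had an FDR of 0.0822, which was 0.03295 without A673 and 0.0344 without TC71. HOXA13, the gene at the tail end, was at most 0.3803 TPM in an Ewing line and ranged from 0.237 to 4.501 TPM in osteosarcoma lines (log2 fold change -3.35 ± 1.09, FDR = 0.0551, or 0.0485 without A673). With DESeq2 the FDRs of HOXA10 and HOXA13 were 0.0156 and 0.0031, so their calls depended on the method.

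A673 differed from the other Ewing lines in that the whole HOXA cluster was at or near 0. HOXA2, HOXA3, HOXA4, HOXA6, HOXA9 and HOXA13 had 0 counts among the 93400042 gene-assigned counts of its 3 libraries. A count of 0 allows up to 3 counts, which for HOXA9 is a mean of 0.0313 TPM, and this limit covers counting error only. HOXA9 also had 0 counts in the 58261092 of the uninduced and the 68522434 of the induced sh908 libraries.

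The HOXB genes overlapped between the tumour types, and 2 of the 9 tested were called, both lower in Ewing lines, where 14.4% of all genes were called and 8.4% were lower. The cluster has no gene between HOXB9 and HOXB13. HOXB3 averaged, in TPM of the Ewing lines, 7.66 in A673, 11.04 in EW3, 7.102 in EW24, 9.03 in MHHES1, 1.16 in RDES, 6.36 in SKES1 and 5.404 in TC71. HOXB3 in osteosarcoma lines averaged, in TPM, 31.5 in G292, 21.1 in HOS-MNNG, 21.6 in KHOS, 19.5 in MG63, 7.098 in SAOS2 and 11.8 in U2OS. HOXB3, a hindbrain and neck gene, had a log2 fold change of -1.58 ± 0.48 (FDR = 0.0427), and RDES was the lowest line. Leaving out a line raised its FDR to 0.0628 without A673, 0.05104 without EW3, 0.0666 without EW24, 0.06102 without MHHES1, 0.0771 without SKES1, 0.0716 without TC71, 0.0863 without G292, 0.0713 without HOS-MNNG, 0.0797 without KHOS and 0.0641 without MG63. HOXB8 averaged, in TPM of the Ewing lines, 0.691 in A673, 0.942 in EW3, 0.744 in EW24, 0.7701 in MHHES1, 0.135 in RDES, 0.403 in SKES1 and 3.73 in TC71. HOXB8 in osteosarcoma lines averaged, in TPM, 9.52 in G292, 11.02 in HOS-MNNG, 8.01 in KHOS, 14.8 in MG63, 1.06 in SAOS2 and 2.09998 in U2OS. HOXB8 had a log2 fold change of -2.95 ± 0.85 (FDR = 0.0342), with TC71 above SAOS2 and U2OS. Its FDR was 0.0605 without A673, 0.0621 without EW3, 0.0652 without EW24, 0.0652 without MHHES1, 0.06604 without SKES1, 0.0519 without G292, 0.0588 without HOS-MNNG, 0.0549 without KHOS and 0.0616 without MG63.

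HOXB7, a central gene, was high in both tumour types and the highest HOX gene of G292. HOXB7 averaged, in TPM of the Ewing lines, 17.9 in A673, 29.8 in EW3, 38.9 in EW24, 40.5 in MHHES1, 9.26 in RDES, 58.7 in SKES1 and 54.4 in TC71. HOXB7 in osteosarcoma lines averaged, in TPM, 46.9 in G292, 36.5 in HOS-MNNG, 32.1 in KHOS, 40.3 in MG63, 30.97 in SAOS2 and 43.4 in U2OS. RDES, A673 and EW3 were below every osteosarcoma line, while SKES1 and TC71 were above them. The log2 fold change was -0.18 ± 0.39 (FDR = 0.801), and it was 0.0075 without RDES, so it has no settled direction. HOXB2 averaged, in TPM of the Ewing lines, 12.1 in A673, 41.4 in EW3, 0.442 in EW24, 10.1 in MHHES1, 0.412 in RDES, 10.5 in SKES1 and 5.49 in TC71. HOXB2 in osteosarcoma lines averaged, in TPM, 32.5 in G292, 55.4 in HOS-MNNG, 44.1 in KHOS, 40.7 in MG63, 19.96 in SAOS2 and 6.48 in U2OS. HOXB2, the highest HOX gene of HOS-MNNG, was under 0.5 TPM in EW24 and RDES, and its log2 fold change of -1.79 ± 0.87 did not pass (FDR = 0.191). HOXB9 averaged, in TPM of the Ewing lines, 3.92 in A673, 0.129 in EW3, 1.13 in EW24, 2.36 in MHHES1, 1.59 in RDES, 1.85 in SKES1 and 13.6 in TC71. HOXB9 in osteosarcoma lines averaged, in TPM, 1.62 in G292, 27.3 in HOS-MNNG, 13.8 in KHOS, 18.3 in MG63, 0.548 in SAOS2 and 44.8 in U2OS. U2OS had HOXB9 as its highest HOX gene, at 44.8 ± 1.76 TPM (SD, n = 3 libraries). Across lines HOXB9 had a log2 fold change of -2.26 ± 1.03 (FDR = 0.161, or 0.04704 without TC71).

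HOXB13, which patterns the tail bud and is a known marker of prostate, stood apart from the rest of its cluster. It averaged, in TPM, 8.79 in A673, 72.8 in EW3, 33.4 in EW24, 50.7 in MHHES1, 30.5 in RDES, 53.2 in SKES1 and 30.6 in TC71. HOXB13 in osteosarcoma lines averaged, in TPM, 0.00503 in G292, 3.71 in HOS-MNNG, 2.09 in KHOS, 20.7 in MG63, 1.01 in SAOS2 and 6.39 in U2OS. Of the osteosarcoma lines, only MG63 was above an Ewing line, namely A673. The log2 fold change was 2.65 ± 0.999 (FDR = 0.0947, or 0.0434 without G292 and 0.0256 without MG63), and HOXB13 was called in 8 of 27 alternatives. These 8 include the fits with fixed line means, which called all 38 members tested. HOXB4, HOXB5 and HOXB6 had log2 fold changes of -1.15, -0.43 and -1.23, with FDRs of 0.375, 0.712 and 0.267. RDES, which had 45.7 TPM for the whole cluster, held 30.5 TPM of it in HOXB13.

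Among HOXC genes the difference lay at the posterior end. HOXC4 to HOXC10 had log2 fold changes between -0.26 and 0.98, none of them called. HOXC11 and HOXC12, 2 of the 9 tested, were called higher in Ewing lines, against 5.96% of all genes. HOXC12 averaged, in TPM of the Ewing lines, 1.498 in A673, 75.8 in EW3, 27.2 in EW24, 60.3 in MHHES1, 51.5 in RDES, 35.3 in SKES1 and 17.4 in TC71. HOXC12 in osteosarcoma lines averaged, in TPM, 1.49 in G292, 1.34 in HOS-MNNG, 0.864 in KHOS, 4.68 in MG63, 0.0213 in SAOS2 and 0.0347 in U2OS. HOXC12 had a log2 fold change of 4.46 ± 1.14 (FDR = 0.0198). EW3 had HOXC12 as its highest HOX gene, at 75.8 ± 14.2 TPM (SD, n = 3 libraries), whereas A673 was at the level of G292 and below MG63. HOXC11 averaged, in TPM of the Ewing lines, 1.07 in A673, 66.4 in EW3, 11.5 in EW24, 28.5 in MHHES1, 32.9 in RDES, 20.5 in SKES1 and 10.3 in TC71. HOXC11 in osteosarcoma lines averaged, in TPM, 2.99 in G292, 2.34 in HOS-MNNG, 1.15 in KHOS, 4.33 in MG63, 0.817 in SAOS2 and 4.82 in U2OS. HOXC11 had a log2 fold change of 2.96 ± 0.69 (FDR = 0.0129), again with A673 inside the osteosarcoma range. Without A673 the values were 3.17 ± 0.52 for HOXC11 and 4.68 ± 1.06 for HOXC12 (FDR = 0.00242 and 0.0136). HOXC13, known for hair and nail growth, was detected in every Ewing line at 8.95 (TC71) to 28.9 TPM (RDES). Osteosarcoma lines had 0.257 (SAOS2) to 14.2 TPM (U2OS). HOXC13 had a log2 fold change of 1.60 ± 0.63 (FDR = 0.106, or 0.0297 with DESeq2).

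HOXC10, a gene of the lumbar region and the hindlimb, was the highest HOX gene of MG63 and was close in both tumour types. HOXC10 averaged, in TPM of the Ewing lines, 8.28 in A673, 49.8 in EW3, 10.1 in EW24, 39.4 in MHHES1, 24.1 in RDES, 27.7 in SKES1 and 10.8 in TC71. HOXC10 in osteosarcoma lines averaged, in TPM, 34.4 in G292, 26.4 in HOS-MNNG, 7.94 in KHOS, 46.5 in MG63, 19.4 in SAOS2 and 18.96 in U2OS. HOXC10 had a log2 fold change of -0.26 ± 0.45 (FDR = 0.746), and it was 0.0205 without MG63, so it has no settled direction. KHOS had the lowest HOXC sum of the 13 lines, 22.3 ± 1.08 TPM (SD, n = 3 libraries), against 77.4 ± 4.37 TPM in HOS-MNNG, the other HOS derivative. In the same 2 lines the HOXA sums were 135 ± 3.66 and 106 ± 7.77 TPM.

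Of the 9 HOXD genes, all tested, 5 were called higher in Ewing lines (HOXD8, HOXD9, HOXD10, HOXD12 and HOXD13), against 5.96% of all genes, and HOXD1, HOXD3, HOXD4 and HOXD11 were not called. HOXD13, the last gene of the cluster (chr2:176087487-176095944), was the highest HOX gene in 5 of the 7 Ewing lines. HOXD13 averaged, in TPM of the Ewing lines, 36.2 in A673, 2.17 in EW3, 149 in EW24, 167 in MHHES1, 112 in RDES, 69.4 in SKES1 and 86.6 in TC71. HOXD13 in osteosarcoma lines averaged, in TPM, 1.15 in G292, 4.05 in HOS-MNNG, 2.45 in KHOS, 2.19 in MG63, 13.1 in SAOS2 and 0.211 in U2OS. The log2 fold change was 4.44 ± 0.99 (FDR = 0.0101). EW3 was the exception, with 1.99, 2.55 and 1.98 TPM in its 3 libraries, below HOS-MNNG, KHOS, MG63 and SAOS2 in the mean. Without EW3 the log2 fold change was 4.67 ± 0.80 (FDR = 0.00374), and without SAOS2, the highest osteosarcoma line, 5.21 ± 1.03 (FDR = 0.00701). HOXD11 averaged, in TPM of the Ewing lines, 61.9 in A673, 7.49 in EW3, 51.999 in EW24, 99.3 in MHHES1, 101 in RDES, 29.4 in SKES1 and 30.6 in TC71. HOXD11 in osteosarcoma lines averaged, in TPM, 0.0271 in G292, 0.204 in HOS-MNNG, 0.05598 in KHOS, 7.46 in MG63, 8.82 in SAOS2 and 3.28 in U2OS. HOXD11, the highest HOX gene of A673, had a log2 fold change of 3.77 ± 1.24 that missed the threshold (FDR = 0.0578), and HOXD11 was called in 9 of 27 alternatives, among them DESeq2 (FDR = 0.00347), limma on log2(TPM + 1) (FDR = 0.00301), curated coding transcripts only (FDR = 0.0234), the length offset (FDR = 0.0391) and the lines without MG63 (FDR = 0.0495). The alternatives that called HOXD11 include the fits with fixed line means, which called all 38 members tested. For HOXD11, EW3 was again the lowest Ewing line and lay within the osteosarcoma range.

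HOXD10 averaged, in TPM of the Ewing lines, 48.3 in A673, 5.23 in EW3, 46.6 in EW24, 63.2 in MHHES1, 82.8 in RDES, 18.6 in SKES1 and 31.2 in TC71. HOXD10 in osteosarcoma lines averaged, in TPM, 1.03 in G292, 0.125 in HOS-MNNG, 0.0625 in KHOS, 7.25 in MG63, 7.56 in SAOS2 and 1.94 in U2OS. HOXD10, which acts in the spinal cord of the hindlimb level, had a log2 fold change of 3.79 ± 1.02 (FDR = 0.0253). Here EW3 lay below MG63 and SAOS2. HOXD9 averaged, in TPM of the Ewing lines, 55.4 in A673, 33.9 in EW3, 21.4 in EW24, 53.96 in MHHES1, 56.4 in RDES, 13.1 in SKES1 and 17.7 in TC71. HOXD9 in osteosarcoma lines averaged, in TPM, 5.03 in G292, 4.25 in HOS-MNNG, 2.19 in KHOS, 4.79 in MG63, 10.4 in SAOS2 and 6.84 in U2OS. HOXD9 kept all Ewing lines above all osteosarcoma lines, and EW3 was not low. HOXD9 had a log2 fold change of 2.60 ± 0.41 (FDR = 0.00159). HOXD8 averaged, in TPM of the Ewing lines, 35.9 in A673, 35.9 in EW3, 15.3 in EW24, 25.9 in MHHES1, 27.5 in RDES, 7.75 in SKES1 and 17.3 in TC71. HOXD8 in osteosarcoma lines averaged, in TPM, 5.72 in G292, 4.12 in HOS-MNNG, 2.59 in KHOS, 11.6 in MG63, 7.42 in SAOS2 and 8.63 in U2OS. HOXD8 had a log2 fold change of 1.73 ± 0.40 (FDR = 0.0121), and SKES1 lay within the osteosarcoma range. HOXD12 averaged, in TPM of the Ewing lines, 0.321 in A673, 0.128 in EW3, 1.43 in EW24, 1.17 in MHHES1, 1.51 in RDES, 0.885 in SKES1 and 0.349 in TC71. HOXD12 in osteosarcoma lines averaged, in TPM, 0.0466 in G292, 0.1902 in HOS-MNNG, 0.187 in KHOS, 0.126 in MG63, 0.253 in SAOS2 and 0.113 in U2OS. HOXD12 was low in all lines although it lies between HOXD11 and HOXD13, and its log2 fold change was 2.24 ± 0.58 (FDR = 0.0205).

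HOXD3 and HOXD4 followed another order of lines. HOXD3, which acts in the neck vertebrae, was highest in EW3 (20.5 TPM) and was 3.201 TPM or more in every Ewing line against at most 3.03 TPM in an osteosarcoma line. HOXD3 had a log2 fold change of 2.37 ± 0.79 (FDR = 0.0592, or 0.0479 without SAOS2). Its FDR was 0.00538 with DESeq2 and 0.0191 with limma on log2(TPM + 1), so the call depended on the method. HOXD4 also peaked in EW3, at 48.4 ± 11.3 TPM (SD, n = 3 libraries), and ranged from 0.322 (U2OS) to 18.8 TPM (SAOS2) in osteosarcoma lines (log2 fold change 1.35 ± 0.71, FDR = 0.223). EW3 thus held 7.09% of its summed HOX level in HOXD9 to HOXD13, where the other 6 Ewing lines held 25.9 to 54.6%, and 24.8% in HOXC11 to HOXC13.

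**Figure D4:**
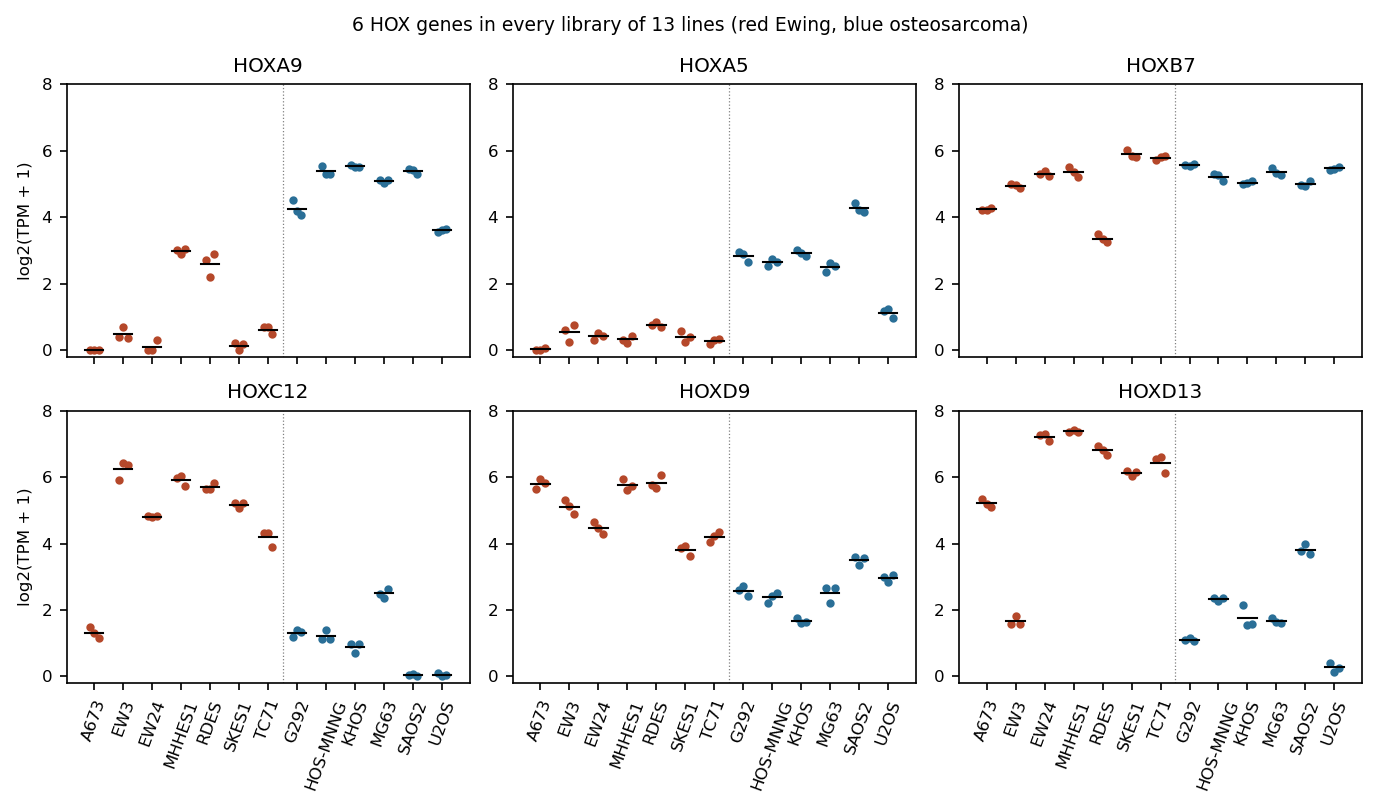
Levels of HOXA9, HOXA5, HOXB7, HOXC12, HOXD9 and HOXD13 as log2(TPM + 1) in each library (points) of the 13 lines (bars are means of 3 libraries; red, Ewing sarcoma; blue, osteosarcoma). HOXA5, HOXA9 and HOXD9 separate the tumour types in every line, A673 is low for HOXC12, and EW3 is low for HOXD13.

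For HOXD13 and HOXB7, lines differed more than the libraries of a line. On the log2(TPM + 1) scale the SD of HOXD13 was 0.15 within lines, 1.98 between Ewing lines and 1.20 between osteosarcoma lines. For HOXB7 these SDs were 0.0871, 0.91 and 0.23. All 34 members tested differed among the Ewing lines and all 37 tested differed among the osteosarcoma lines (edgeR F-test). As 90.9% and 95.2% of all genes did so too, these counts single out no HOX gene. As a description, Pearson correlations of log2(mean TPM + 1) over the 39 genes had a median of 0.82 between pairs of Ewing lines, 0.66 between pairs of osteosarcoma lines and 0.16 between lines of different tumour types. The highest among Ewing pairs was 0.92 for MHHES1 and SKES1, the highest among osteosarcoma pairs was 0.92 for HOS-MNNG and KHOS, and the lowest between tumour types was -0.30 for RDES and KHOS.

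Some members' sums held RNA that is not the curated protein-coding form. A transcript listed as noncoding made up 66.7 ± 7.67% of the HOXA10 level in the 6 Ewing lines that had at least 1 TPM (SD over lines) and 73.6 ± 11.03% in the 6 osteosarcoma lines. For HOXD11 a predicted noncoding transcript held 34.1 ± 7.49998% in the 7 Ewing lines. Predicted coding models held 73.9 ± 17.4% of HOXD3 in the same 7 lines. Genes that share bases in the annotation can share reads, so their split is uncertain: HOXC4, HOXC5 and HOXC6 start at the same base (chr12:54016888), HOXA3 spans HOXA4, HOXA5 and HOXA6, HOXB3 spans HOXB4, and HOXD3 overlaps HOXD4 by 698 bases.

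Noncoding RNAs of the clusters were examined in a list of 18, of which 15 were tested, with 0 higher and 3 lower in Ewing lines: HOTAIRM1, HOXA-AS3 and HOXA11-AS, all of the HOXA cluster. This count stands beside the 14.4% called among all genes. HOTAIRM1 was at 0.578 ± 0.889 TPM in Ewing lines (SD, n = 7 lines). The osteosarcoma value was 14.8 ± 6.14 TPM (SD, n = 6 lines), with a log2 fold change of -4.78 ± 0.96 (FDR = 0.00606). HOXA11-AS had a log2 fold change of -4.18 ± 0.71 (FDR = 0.00232). HOTAIR, which lies across from HOXC11, averaged, in TPM, 1.498 in A673, 35.4 in EW3, 18.8 in EW24, 32.1 in MHHES1, 32.2 in RDES, 17.6 in SKES1 and 4.902 in TC71 in the Ewing lines. HOTAIR in osteosarcoma lines averaged, in TPM, 1.88 in G292, 1.28 in HOS-MNNG, 0.402 in KHOS, 10.9 in MG63, 1.04 in SAOS2 and 5.37 in U2OS, for a log2 fold change of 2.38 ± 0.80 (FDR = 0.0632). A673 was the lowest Ewing line for HOTAIR as it was for HOXC11 and HOXC12. HOTTIP, beside HOXA13, was at most 0.1199 TPM in any line. The libraries were made with a strand-marking kit, but whether strand was used in the assignment of reads is not stated, so reads of an antisense RNA and of the gene opposite cannot be told apart with certainty.

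Of 9 TALE cofactors, all tested, 1 was called, beside 14.4% of all genes: MEIS1, a DNA-binding partner of posterior HOX proteins, was higher in Ewing lines. MEIS1 averaged, in TPM, 17.1 in A673, 53.9 in EW3, 49.2 in EW24, 16.3 in MHHES1, 55.3 in RDES, 23.2 in SKES1 and 6.85 in TC71. MEIS1 in osteosarcoma lines averaged, in TPM, 4.62 in G292, 1.75 in HOS-MNNG, 0.544 in KHOS, 2.63 in MG63, 1.81 in SAOS2 and 6.34 in U2OS. Every Ewing line was above every osteosarcoma line (log2 fold change 3.34 ± 0.57, FDR = 0.00238). Of 25 regulators of the clusters, 21 were tested, with 3 higher (EZH2, CBX2 and CBX8) and 1 lower (RARB), beside 14.4% of all genes called. EZH2, the methyltransferase of Polycomb repressive complex PRC2, was at 171 ± 84.8 TPM in Ewing lines (SD, n = 7 lines). The osteosarcoma value was 42.8 ± 13.4 TPM (SD, n = 6 lines). Its lines did not overlap (log2 fold change 1.84 ± 0.34, FDR = 0.00359). The Polycomb reader CBX2 was at 78.2 ± 22.9 and 18.8 ± 18.9 TPM, again without overlap (log2 fold change 2.09 ± 0.59, FDR = 0.0322). The CBX2 FDR was 0.0515 without MHHES1, 0.0617 without SKES1, 0.0561 without TC71, 0.0648 without HOS-MNNG and 0.0589 without MG63. CBX8 had a log2 fold change of 1.17 ± 0.37 (FDR = 0.0491), and its FDR rose to between 0.0506 and 0.0993 without any 1 of A673, EW3, EW24, MHHES1, SKES1, TC71, G292, HOS-MNNG, KHOS, MG63 or U2OS, and was 0.0867 with the HOS derivatives as 1 line. RARB, a retinoic acid receptor, was at most 0.287 TPM in an Ewing line and 0.0924 to 21.7 TPM in osteosarcoma lines (log2 fold change -5.22 ± 1.26, FDR = 0.0155), and was not called by limma on log2(TPM + 1) (FDR = 0.208) or with line as a random effect (FDR = 0.0648).

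Genes that lie beside the clusters were a list of 12, of which 10 were tested, with 2 higher (PRAC1 and EVX2) and 1 lower (SKAP2) in Ewing lines, beside 14.4% of all genes called. PRAC1, a small gene next to HOXB13, averaged, in TPM, 77.7 in A673, 324 in EW3, 213 in EW24, 111 in MHHES1, 197 in RDES, 117 in SKES1 and 335 in TC71 in Ewing lines. It averaged, in TPM, 0.0699 in G292, 0.0824 in HOS-MNNG, 0.222 in KHOS, 3.01 in MG63, 0 in SAOS2 and 0.479 in U2OS in osteosarcoma lines, where MG63, the line with the most HOXB13, was the highest. PRAC1 had a log2 fold change of 8.12 ± 1.17 (FDR = 9.15e-04). PRAC2, its neighbour, did not overlap between the tumour types either but did not pass (log2 fold change 3.89 ± 1.24, FDR = 0.0519). EVX2, the homeobox gene beyond HOXD13, averaged, in TPM, 0.137 in A673, 0.113 in EW3, 1.39 in EW24, 1.07 in MHHES1, 2.21 in RDES, 0.428 in SKES1 and 2.09 in TC71 in Ewing lines, and was at most 0.0352 TPM in an osteosarcoma line (log2 fold change 5.66 ± 0.91, FDR = 0.00165). Its osteosarcoma level was near 0, and its log2 fold change ran from 0.90, with limma on log2(TPM + 1), to 6.0002 without HOS-MNNG, and EVX2 was called in all 27 alternatives. EW3 and A673 had the lowest EVX2 of the Ewing lines. MTX2 and LNPK, on the far side of the HOXD cluster and of EVX2, had log2 fold changes of -0.0846 and 0.0282 (FDR = 0.858 and 0.9598). SKAP2 had a log2 fold change of -3.53 ± 1.08 (FDR = 0.04404), with an FDR of 0.0523 to 0.0783 without any 1 of A673, EW3, EW24, MHHES1, RDES, SKES1, G292, HOS-MNNG, KHOS, MG63 or SAOS2, and 0.0632 with the HOS derivatives as 1 line.

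The second comparison asked whether induction of the KCNN1 hairpin changed HOX genes in A673. KCNN1 itself measured 37.8, 35.3 and 17.99 TPM in replicates 1 to 3 without doxycycline and 10.2, 13.7 and 7.75 TPM with it, so every induced library was below every uninduced one. No HOX gene was called: of 23 members tested, 0 passed an FDR under 0.05 and 0 had an unadjusted p under 0.05. Of all 14252 genes tested, 0% were called and 94 had an unadjusted p under 0.05. KCNN1 was thus not called either, so the lack of calls does not show that HOX genes kept their level. Log2 fold changes of the members lay between -0.61 (HOXC10) and 0.44 (HOXB9), and no member separated the 3 induced from the 3 uninduced libraries. Over the 3 same-numbered pairs, 7 members were lower with doxycycline in every pair (HOXB2, HOXB3, HOXB7, HOXB13, HOXC5, HOXC10 and HOXD10) and 3 were lower in none (HOXB9, HOXC8 and HOXD13). The share of all genes with such an order is not given, and the values do not tell pairs 1 and 2 from each other. These counts therefore single out no HOX gene. With the replicate number as a block, 0.512% of all genes were called (73), again with 0 members. In that fit 3 of the 23 members had an unadjusted p under 0.05, beside 1878 of the 14252 genes, so these 3 single out no HOX gene. DESeq2 called 2 genes (0.014%) and 0 members.

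HOXC10 had the lowest FDR of the members with the block and was singled out after its values were seen. It measured 10.5, 15.4 and 39.5 TPM in uninduced replicates 1, 2 and 3, against 7.18, 9.15 and 25.8 TPM in the induced ones. It was lower with doxycycline in each of the 3 pairs, and the blocked log2 fold change was -0.61 ± 0.12 (FDR = 0.0665). Without the block its log2 fold change ran from -1.09 without induced replicate 3 to -0.18 without uninduced replicate 3. HOXD11, the highest member in A673, measured 44.6, 43.7 and 81.6 TPM uninduced and 44.7, 47.1 and 59.9 TPM induced. HOXD13 measured 22.9, 21.03 and 16.4 TPM uninduced and 24.1, 24.7 and 16.4 TPM induced. Replicate 3 was the highest library of both treatments for HOXD11 and the lowest for HOXD13.

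Within the sh908 cells, HOXD3 and HOXD4 differed between replicates. HOXD4 measured 16.6, 21.2 and 25.3 TPM in parental A673, 0.112, 0.0871 and 23.6 TPM in uninduced and 0.721, 0.298 and 14.6 TPM in induced sh908 replicates 1, 2 and 3. HOXD3 measured 3.35, 4.19 and 3.72 TPM in parental cells, 0.639, 0.491 and 6.52 TPM in uninduced and 0.391, 0.645 and 5.03 TPM in induced cells. For both genes, replicates 1 and 2 were near 0 under either treatment and replicate 3 was far above them. Replicate 3 was also the highest library under both treatments for HOXB2, HOXB3, HOXB4, HOXB6 to HOXB9 and HOXB13, for HOXC4, HOXC5, HOXC6, HOXC10 and HOXC13, and for HOXD8 to HOXD11. HOXB3 measured 6.76, 7.57 and 8.65 TPM in parental cells, 6.0004, 5.66 and 29.97 TPM in uninduced and 4.03, 5.37 and 23.3 TPM in induced cells. HOXC8 ran the other way, at 7.82, 5.52 and 3.38 TPM in uninduced and 8.27, 8.32 and 3.43 TPM in induced cells, lowest in replicate 3. The number of genes with a count, given above, also set replicates 1 and 2 apart from replicate 3, and its part in these levels was not tested.

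**Figure D5:**
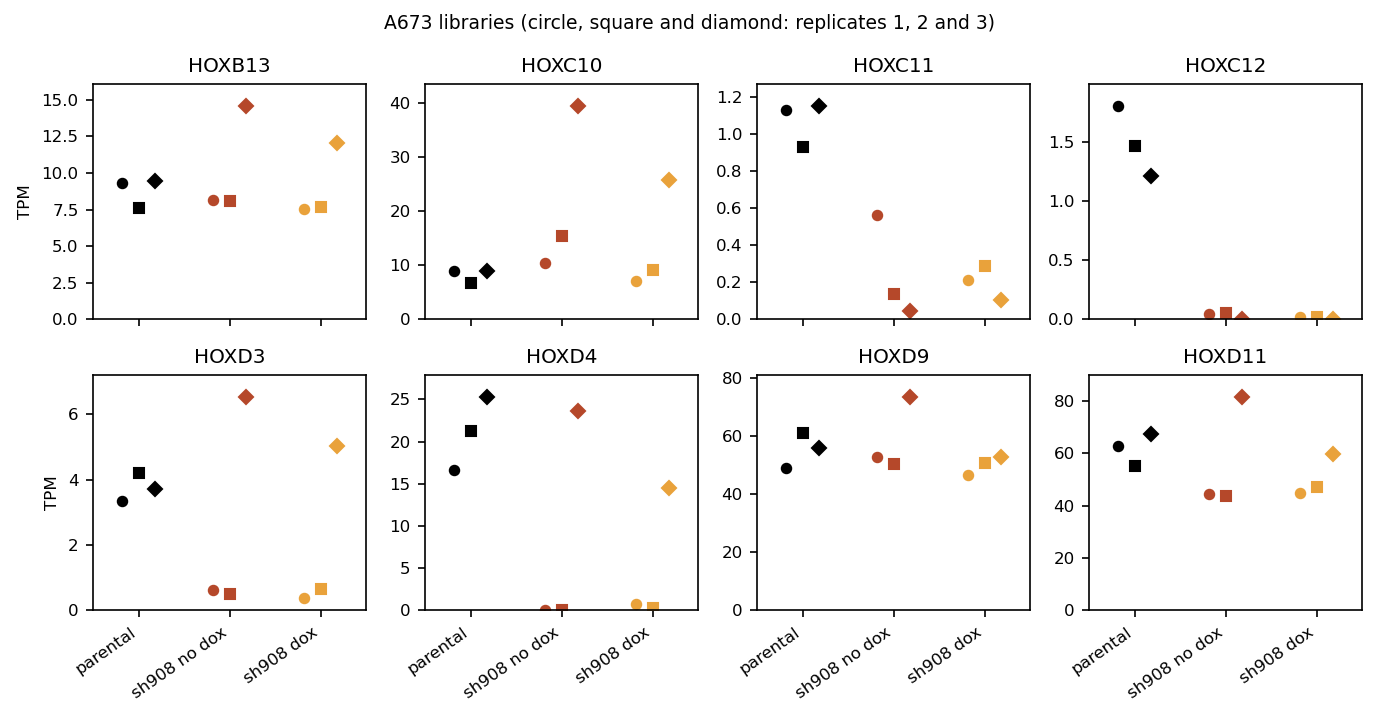
TPM of 8 HOX genes in each library of parental A673, uninduced sh908 and induced sh908 cells (circle, square and diamond are replicates 1, 2 and 3; each panel has its own axis from 0). HOXD3 and HOXD4 are near 0 in sh908 replicates 1 and 2 and not in replicate 3, and HOXC12 is near 0 in all 6 sh908 libraries.

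The third comparison set uninduced sh908 cells against parental A673, which share no library with each other but share the uninduced libraries with the comparison above. Of 24 members tested, 7 were called, 6 higher (HOXB4, HOXB7, HOXB9, HOXB13, HOXC10 and HOXD9) and 1 lower (HOXC12), where 15.1% of the 15778 genes tested were called, 8.71% higher and 6.42% lower. HOXC12 fell from 1.81, 1.47 and 1.22 TPM to 0.0488, 0.0555 and 0 TPM, without overlap (log2 fold change -4.89 ± 0.77, FDR = 0.0149, or 0.0506 with the replicate block, 0.0881 to 0.102 without a parental library and 0.0520 without uninduced replicate 2). Its neighbour HOXC11 measured 1.13, 0.929 and 1.15 TPM in parental and 0.562, 0.139 and 0.0478 TPM in uninduced cells and did not pass (log2 fold change -1.51 ± 0.84, FDR = 0.256). HOXC10 measured 8.96, 6.84 and 9.05 TPM in parental and 10.5, 15.4 and 39.5 TPM in uninduced cells (log2 fold change 1.74 ± 0.34, FDR = 0.0234), with replicate 3 far above the rest. HOXB4 measured 9.15, 8.21 and 10.4 TPM in parental and 12.7, 12.1 and 24.2 TPM in uninduced cells, again without overlap (log2 fold change 1.23 ± 0.18, FDR = 0.0128). The other 4 had log2 fold changes of 0.97 (HOXB7), 1.18 (HOXB9), 0.64 (HOXB13) and 0.54 (HOXD9), with FDRs of 0.0237, 0.04299, 0.0435 and 0.0435. HOXB7 measured 17.6, 17.8 and 18.4 TPM in parental and 19.2, 18.8 and 41.8 TPM in uninduced cells, without overlap. HOXB9 measured 3.77, 2.87 and 5.11 TPM in parental and 4.37, 5.18 and 10.9 TPM in uninduced cells, where uninduced replicate 1 lay within the parental range. HOXB13 measured 9.33, 7.61 and 9.43 TPM in parental and 8.14, 8.11 and 14.6 TPM in uninduced cells, so only uninduced replicate 3 lay above the parental range.

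These calls depended on the scale and on single libraries. With the replicate block 0 members and 2.02% of all genes were called. On the log2(TPM + 1) scale the median of all genes fell by 0.32 and limma called 4 members, 0 higher and 4 lower, where 20.7% of all genes were called, so none of the 6 calls upwards was made on that scale. All 6 log2 fold changes stayed above 0 in the 18 alternatives. HOXD9 measured 49.2, 61.1 and 55.99 TPM in parental and 53.1, 50.5 and 73.6 TPM in uninduced cells, a log2(TPM + 1) difference of 0.0751. On that scale HOXB13 differed by 0.16, HOXB7 by 0.45, HOXB9 by 0.60 and HOXB4 by 0.69. HOXB13 and HOXD9 were each called in 5 of 18 alternatives. Leaving out parental replicate 1, 2 or 3 gave 0 members called (and 4, 2 and 8 genes in all). Without uninduced replicate 1, 5 members were called (3 higher and 2 lower), beside 1377 of 16683 genes. Without uninduced replicate 2 it was 1 member, beside 266 of 16613 genes. Leaving out uninduced replicate 3 gave 11, where 62.3% of all genes were called. HOXD13 measured 39.8, 35.3 and 33.4 TPM in parental cells and 22.9, 21.03 and 16.4 TPM in uninduced cells, without overlap, but did not pass on counts (log2 fold change -0.32 ± 0.28, FDR = 0.459).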

How the data were processed

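Poly(A) RNA of 45 libraries had been sequenced. The authors deposited, per the file headers, the estimated counts of each RefSeq transcript in each library, its TPM and its effective length. The submitters' processing notes name kallisto 0.46.2, fastp 0.19.5 and GRCh38.p14 (hg38). The strand option and annotation release were not stated there. Transcripts were joined to gene symbols, which matched 169966 of 177816, and unmatched transcripts held 0.915 to 1.60% of the counts. Estimated counts and TPM were summed per symbol, and counts were rounded for tests. Effective lengths, which the authors' files give in nucleotides (a unit of another kind than counts), served only in a length offset.

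Tests used edgeR 4.0.16 (quasi-likelihood, robust, filterByExpr, TMM) in R 4.3.3 with Benjamini-Hochberg adjustment over all genes tested, on line sums for the tumour types and on libraries otherwise. DESeq2 1.42.0 and limma 3.58.1 (pseudocounts of 1 and 0.1 TPM) were alternatives, beside other scalings, filters, transcript sets, left-out lines and libraries, and a replicate block. The procedures were tested on simulated data in which libraries were drawn independently. Those data held no split like that of sh908 replicate 3 from replicates 1 and 2, and the outcome is not given here. Values in every line were given for called members, for each line's highest member, and for the 3 members highest over either tumour type. HOXB13 was added after its values were seen. Values of 1 member and 1 cofactor are not reported here. The members and lists were chosen with earlier results of these data known. Between sh908 treatments the same replicate numbers deviated together (correlations of deviations over genes of 0.683, 0.582 and 0.881), and the block uses this pairing, which the labels give only as a number. Uninduced 1 with induced 2 (0.608) and uninduced 2 with induced 1 (0.517) correlated nearly as much, so the values set replicate 3 apart and do not tell the pairs 1 and 2 from each other.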

Additional observations from a re-analysis of the deposited data

Results flagged for a closer look

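For the 23 HOX genes with values in every line, each tumour type was examined for a line whose mean level lay far from all other lines of its type. A line stood apart in 9 of the 46 sets, where chance flags about 1 in 20 if values are normally distributed. TPM values are skewed towards high values and the genes were partly chosen by their values, so the share is no measure against chance. HOXA6 was 0.634 TPM in RDES against 0.229 TPM in the next Ewing line. HOXA7 was 8.12 TPM in SKES1, where the next Ewing line had 2.40 TPM. HOXB2 was 41.4 TPM in EW3 and 12.1 TPM in the next Ewing line. TC71 stood apart from the other Ewing lines for the neighbours HOXB8, at 3.73 against 0.942 TPM, and HOXB9, at 13.6 against 3.92 TPM. Among osteosarcoma lines, SAOS2 stood apart for HOXA5, at 18.4 against 6.60 TPM, and for HOXD13, at 13.1 against 4.05 TPM. MG63 stood apart for HOXC12, at 4.68 against 1.49 TPM in the next osteosarcoma line. HOXB13 was 20.7 TPM in MG63 against 6.39 TPM in the next osteosarcoma line. In each of the 9 sets the line that stood apart was the highest.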

How the results depend on the processing

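Between the tumour types, 15 to 38 members were called over 27 alternatives, and 15 called members (among them HOXA2 to HOXA7, HOXA11, HOXC11, HOXC12, HOXD8, HOXD9, HOXD10, HOXD12 and HOXD13) were called in all of them. Leaving out a line or a replicate number gave 15 to 19, beside 2296 to 3177 of all genes. The count was 28 with line as a random effect, where 21.7% of all genes were called. With fixed line means it was 38 without a block and 38 with the replicate block, where 70.4% of all genes were called, since those fits use only the spread between libraries. Over left-out lines the log2 fold change of HOXB7 ran from -0.38 (without TC71) to 0.0075 (without RDES) and that of HOXC10 from -0.48 (without EW3) to 0.0205 (without MG63). Among lines, 32 to 38 members were called in Ewing and 36 to 38 in osteosarcoma lines (34 and 37 with the replicate block). With doxycycline, 0 members were called in all 18 alternatives, the replicate block included. HOXD11 ran from -0.20 without uninduced replicate 2 to 0.0699 without uninduced replicate 3, and turned to 0.0356 in the block without pair 3.

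Uninduced against parental cells gave 0 to 14 members. The replicate block gave 0. Same-numbered libraries had correlations of 0.0455, 0.0866 and 0.250, so only the libraries numbered 3 passed 0.1. Curated coding transcripts alone gave 3 of 24 members, beside 1676 of 12381 genes. The fit of all 45 libraries gave 14 of 38 members, beside 7558 of 23589 genes. With limma it was 4 and 2 at pseudocounts of 1 and 0.1, beside 3270 and 3118 of 15778 genes. Leaving out a library gave 0 to 11, beside 2 to 10202 genes. Leaving out pair 1, 2 or 3 in the block gave 1, 2 and 11, beside 205, 345 and 8250 genes. HOXD11 turned to 0.27 with the length offset and 0.46 with curated coding transcripts. It was -0.21 without uninduced replicate 3, 0.0077 without parental replicate 3, 0.0176 and 0.0575 without uninduced replicates 1 and 2, and 0.0022 in the block without pair 1. The causes were not tested. At 5 TPM the median number of members detected was 20.5 in osteosarcoma and 22 in Ewing lines, so the order of the tumour types turned. Same-numbered libraries of different lines deviated together (over 0.1) in 8 of 63 Ewing and 1 of 45 osteosarcoma pairs, so these numbers pair nothing.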

Other observations

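Limb position factors were a list of 6, all tested between the tumour types, of which TBX5, the forelimb T-box factor, was called higher in Ewing lines (log2 fold change 9.44 ± 2.42, FDR = 0.0203), beside 14.4% of all genes called. It ranged from 0 TPM in A673 to 101 TPM in EW3, with a median of 12.8 TPM over the Ewing lines, and was at most 0.178 TPM in an osteosarcoma line, so line values overlapped. TBX5 was called in 18 of 22 alternatives: limma gave FDRs of 0.0849 and 0.0576 at pseudocounts of 1 and 0.1, and fixed line means gave an FDR of 1. Its log2 fold change ran from 2.87 to 12.6 over them. PITX1, a hindlimb factor, ranged from 0.120 TPM in EW3 to 43.05 TPM in EW24 and was not called (FDR = 0.234). HAND2, which acts at the posterior edge of the limb bud, had a log2 fold change of 2.42 ± 0.90 (FDR = 0.0922). EW3, the Ewing line with the least HOXD10, HOXD11 and HOXD13 RNA, was the highest Ewing line for TBX5 and HAND2 and the lowest for PITX1 and SHOX2.

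Of the marker lists, 5 of 8 Ewing markers were called higher in Ewing lines, 3 of the 6 osteoblast markers tested were called lower, and 2 of the 7 tested markers of other cells (CD14 and PECAM1) were called lower, beside 14.4% of all genes called. With doxycycline no gene of any list was called. In uninduced sh908 cells against parental A673, 3 of the 6 tested noncoding RNAs of the clusters were called: HOXC-AS1 and HAGLR higher and HOTAIR lower. MEIS3 and PKNOX2 among the cofactors, RARG among the regulators and PRAC2 beside the clusters were called higher, and BMI1 was called lower. Of the markers, NKX2-2 and PRKCB were called higher and PECAM1 lower. In that comparison 15.1% of all genes were called.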
